A study of Mus musculus with 6 samples.

Results

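The comparison described here set DP42 cells that had shared a culture with mouse B cells against DP42 cells grown alone. DP42 is a mouse line of multiple myeloma, the cancer of antibody-secreting plasma cells. The comparison used 4 of the 6 arrays of the series: 2 labelled with B cells as the co-culture partner and 2 with no partner, both after 24 h. In the co-culture groups the array titles and source names give only the partner cells, whereas the cell type label is DP42 and the descriptions name co-cultured myeloma. They were read as arrays of the DP42 cells, and every value below rests on that reading. The other 2 arrays came from DP42 cells kept for 24 h with mouse neutrophils, which the labels call neutrophils (IMC) without spelling out the abbreviation. Per the labels, flow cytometry separated co-cultured cells into their populations before a rinse in PBS and lysis in Trizol, and whether the cells grown alone went through the sorter is not stated. The design text names the culture with B cells as the control of the study, whose title concerns marrow neutrophils. No genotype, donor strain, animal age or cell ratio is given. All groups were the same single cell line, and no label says whether the 2 arrays of a group were separate cultures, so the p-values below measure only the spread between these arrays. In such bulk RNA, fewer cells of a type and less RNA per cell cannot be told apart. Values were compared for 22180 genes, each read by 1 probe set, as differences on the log2 scale, with B cells minus alone.

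Myeloma cells live in the bone marrow among other blood cells, and their growth depends on signals from those neighbours, such as IL-6 and the TNF family ligands BAFF and APRIL. Normal B cells carry the surface receptors CD20, CD21 and CD23 and a membrane antibody, and present antigen on MHC class II, whereas plasma cells shut down much of this programme under the regulator Blimp-1 and turn to antibody secretion. The comparison with cells grown alone asks what company of B cells did to the DP42 transcriptome over the culture.

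The label of the cells was first set against plasma cell genes. Sdc1, the plasma cell surface proteoglycan CD138, lay at 8.43 and 8.55 in the 2 arrays of cells alone, above the array medians of 7.30 and 7.33, while its second probe set read 6.70 and 6.68, below them. Jchain, which links secreted antibody chains, lay at 5.45 and 5.37, Tnfrsf17, the receptor BCMA, at 5.99 and 6.06, and Prdm1, which encodes Blimp-1, at 6.70 and 6.78, all below those medians. Il7r, the receptor for the B-lineage growth factor IL-7, lay at 12.43 and 12.33, and Pax5, the regulator of B cell identity that plasma cells switch off, lay at 11.00 and 10.95. These genes were picked from lists that were bright on the whole, with a mean of 9.25 and 9.30 over the 19 plasma cell genes in the 2 alone arrays. Some defining plasma cell genes thus lay below the array median and Il7r and Pax5 above it, and the cells are called DP42 cells from here on. Of 19 plasma cell genes none had both B-cell arrays on the same side of both alone arrays. Of 15 early B-lineage genes 4 (26.7%) had both B-cell arrays below and 0 above. Of all genes 13.5% had both above and 13.5% both below. None of the 15 reached an unadjusted p under 0.05, which 1.61% of all genes reached on the higher and 2.3% on the lower side. Il7r was 12.49 and 12.39 and Pax5 10.94 and 10.96 with B cells, and in both genes the groups overlapped.

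No gene passed the test. Limma called 0 of 22180 genes (0%) at an adjusted p under 0.05, and the smallest adjusted p was 0.239. At an unadjusted p under 0.05, 358 genes (1.61%) stood higher with B cells and 511 (2.3%) lower. Both B-cell arrays lay above both alone arrays in 3001 genes (13.5%) and below both in 3002 (13.5%), and the median difference over all genes was -0.00. For a single gene an exact permutation test of 2 arrays against 2 cannot give a p below 0.333. The count of 869 genes at an unadjusted p under 0.05 moved with single arrays. It rose when either B-cell array was left out and fell when either alone array was. With 1 B-cell array left, only the alone and neutrophil arrays gave the spread, so the larger counts do not show more differences. On simulated data of this comparison the same fit recovered 99.7% of 2-fold and 77.8% of 1.5-fold differences, with 8.63% false genes among the calls. Differences of 1.5-, 2- or 4-fold were put into 200 genes, with 1 size per gene. The simulated noise was independent between genes and had the same spread in every group, unlike the B-cell arrays described below. These rates therefore do not say how many real differences were missed here.

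The 2 B-cell arrays differed from each other more than the arrays of the other groups did. The difference between the 2 arrays of a group had an SD over genes of 0.257 with B cells, against 0.152 alone and 0.162 with neutrophils. In 1014 genes (4.57%) the B-cell arrays lay more than 0.5 apart on the log2 scale (1.41-fold), and replicate 2 was the higher in 863 of them. In the arrays of cells alone 186 genes (0.839%) lay that far apart. The split followed brightness, the mean signal of a gene over the 6 arrays. In the dimmest of 5 classes of brightness (4436 genes each) B-cell replicate 1 had a median of -0.08 against the alone mean and replicate 2 of 0.07. In the brightest class the medians were 0.06 and -0.10. Replicate 1 therefore stood relatively low in dim genes and high in bright genes, and replicate 2 the reverse. The part of signal quality or of RNA quality in this split was not tested. Values of single genes below are given for both replicates, and list medians for replicate 1 and then replicate 2 where they are given in pairs.

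**Figure D1:**
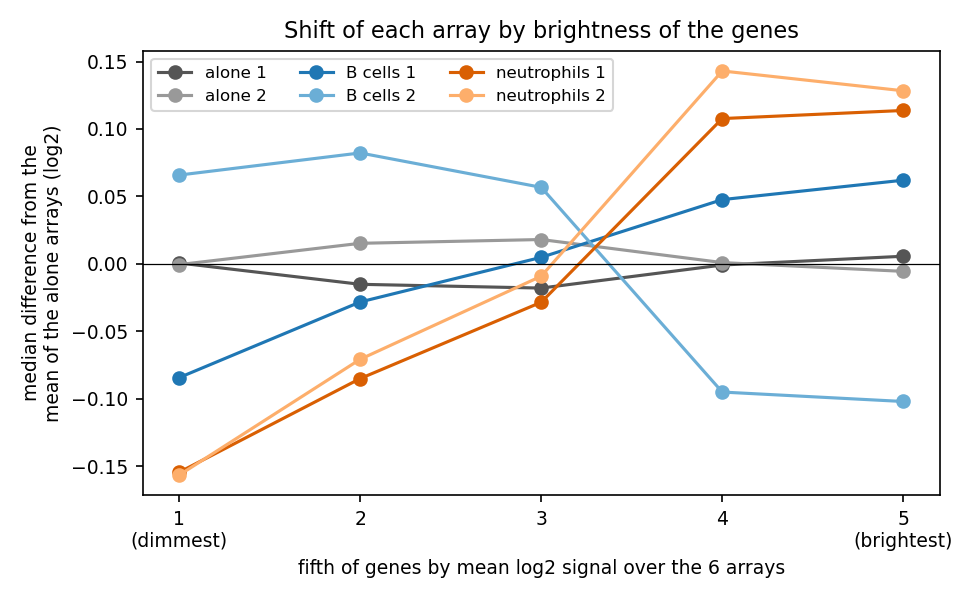
Median difference from the mean of the 2 alone arrays (log2, vertical axis) in 5 equal classes of the 22180 genes ordered by brightness (horizontal axis), for each co-culture array. B-cell replicate 1 runs from -0.08 in the dimmest class to 0.06 in the brightest, and B-cell replicate 2 from 0.07 to -0.10.

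No gene had a smaller adjusted p than Cd209a, which encodes a C-type lectin of the DC-SIGN family and is used as a marker of dendritic cells. Cd209a read 10.70 and 10.80 in cells alone, 9.84 and 9.999 with B cells, and 10.30 and 10.26 in the neutrophil co-culture. Both B-cell arrays lay below all 4 others. The means were 10.75 ± 0.07 (SD, n = 2) alone and 9.92 ± 0.11 (SD, n = 2) with B cells, a difference of -0.83 ± 0.10 (SE) or 1.78-fold lower. Limma gave an unadjusted p of 2.2e-05 and an adjusted p of 0.239. It passed in 2 alternatives, a fit of the brighter genes alone (adjusted p = 0.0197) and eBayes with trend and robust settings (adjusted p = 0.0177), and in none of the others, where adjusted p ran from 0.0588 to 1. The platform annotation gives Cd209a a second probe set, which read 6.99 and 6.92 alone and 7.03 and 6.90 with B cells, a difference of 0.01. The 2 probe sets disagree, and averaging them gave -0.41. Signal from related Cd209 genes on these probes was not tested.

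The immunoglobulin constant gene Ighg3, which encodes the heavy chain of IgG3, also stood low, at 7.90 and 7.72 alone against 6.37 and 7.48 with B cells. The neutrophil arrays lay lower still for Ighg3, at 5.61 and 5.91. With B cells its difference of -0.88 ± 0.30 (SE, unadjusted p = 0.016) came mostly from replicate 1, at -1.44, with replicate 2 at -0.33. A second probe set for Ighg3 differed by 0.02. Ighm, the heavy chain of IgM, read 13.35 and 13.30 alone and 13.34 and 13.28 with B cells, so the groups overlapped.

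Among genes that stood higher, differences were small and none passed. Wipf2, a WASP-interacting regulator of actin, read 8.36 and 8.33 alone and 8.86 and 8.68 with B cells, a difference of 0.43 ± 0.10 (SE, unadjusted p = 0.0021). The neutrophil arrays read 8.71 and 8.72 for Wipf2, so both kinds of co-culture lay above the cells alone. Tcaf1, which regulates TRP ion channels, read 7.22 and 7.30 alone and 7.55 and 7.75 with B cells (difference 0.39, unadjusted p = 0.0053). Sf3b4, a subunit of the splicing factor SF3b, read 6.40 and 6.54 against 6.96 and 6.89 (0.46, unadjusted p = 0.0022), and 7.17 and 6.98 with neutrophils. Lmo1, a LIM-domain transcription co-regulator known as a leukaemia oncogene, read 5.06 and 5.19 against 5.58 and 5.61 (0.47, unadjusted p = 0.00089). These 4 genes had no overlap between the groups. Receptors, microRNAs, predicted genes and antigen receptor segments aside, the largest positive differences without overlap at an unadjusted p under 0.05 lay in dim genes. These were Nlrp4g (0.69), Sprr2d (0.55), Twist2 (0.55) and Prl8a8 (0.50), all below the array median in every alone and B-cell array.

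**Figure D2:**
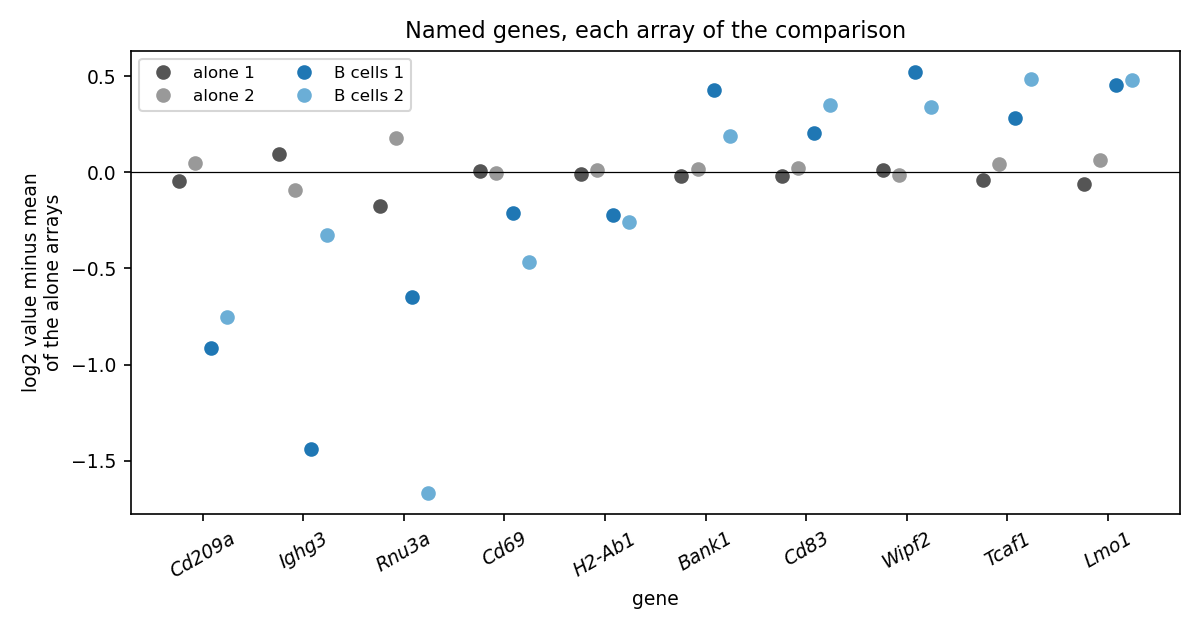
Difference of each array from the mean of the 2 alone arrays (log2, vertical axis) for 10 genes named in the text (horizontal axis), with the 2 alone and the 2 B-cell arrays as separate points. Cd209a lies at -0.91 and -0.75 in the B-cell arrays, while Ighg3 lies at -1.44 and -0.33.

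Small nucleolar RNAs (snoRNAs) were a group that stood low in both B-cell arrays. They are short noncoding RNAs that guide chemical modification of ribosomal RNA and are mostly cut from introns of host genes. Of 73 snoRNA genes, picked by name, 36 (49.3%) had both B-cell arrays below both alone arrays and 2 had both above. Among the 7378 genes at least as bright as the lower quartile of the snoRNAs, 1211 (16.4%) had both B-cell arrays below. At an unadjusted p under 0.05, 29 of the 73 stood lower and 0 higher, beside 2.3% and 1.61% of all genes, and none passed adjustment. Of the 80 genes RefSeq annotates as snoRNAs, 36 had both B-cell arrays below and 5 both above, beside 13.5% of all genes each way. Of those 80, 29 stood lower and 1 higher at an unadjusted p under 0.05, again beside 2.3% and 1.61% of all genes. The median difference of the 73 was -0.25, at -0.26 in replicate 1 and -0.25 in replicate 2, beside -0.00 over all genes. Replicate 1 lay below both alone arrays in 49 of the 73 and replicate 2 in 53, against 34.6% and 40.8% of all genes. The list was chosen with earlier results of these data known, so its low values are a description. The count of 29 fell without alone replicate 2, as did the count over all genes. The snoRNA median ran from -0.20 to -0.30 over the settings tried.

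Both classes of snoRNA stood low. The 26 H/ACA snoRNAs, which guide pseudouridylation, had a median of -0.31 (-0.46 and -0.28) and 15 (57.7%) with both B-cell arrays below. The 47 C/D snoRNAs, which guide ribose methylation, had a median of -0.17 (-0.22 and -0.23) and 21 (44.7%) below. Of all genes 13.5% had both below. Snora15 read 10.69 and 11.07 alone, 9.25 and 10.16 with B cells, while the neutrophil co-culture gave 10.46 and 10.41, so both B-cell arrays lay below the other 4. Its difference was -1.18 ± 0.26 (SE, unadjusted p = 0.0015). Snora44 read 12.39 and 12.29 against 11.32 and 11.86 with B cells. Snora62 read 10.81 and 11.01 against 9.81 and 10.42. In these 3 H/ACA RNAs replicate 1 was the lower of the B-cell arrays. In the C/D RNA Snord66 the B-cell arrays lay close together, at 7.77 and 7.93 against 8.44 and 8.80 alone (unadjusted p = 0.0008), as they did in the H/ACA RNA Snora20, at 8.62 and 8.82 against 9.31 and 9.55 (unadjusted p = 0.00074). Snord118, the U8 RNA needed for processing of the large ribosomal subunit, read 8.84 and 9.28 alone and 8.06 and 8.61 with B cells. Not every member stood low. Snora61 read 9.17 and 9.48 alone and 10.25 and 9.10 with B cells, so its 2 B-cell arrays lay on opposite sides. Snora73b did the same, at 11.26 and 11.46 against 11.95 and 10.99.

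The host genes that carry these snoRNAs in their introns had smaller differences. The 41 host genes had a median of -0.08 (-0.01 in replicate 1 and -0.13 in replicate 2). Of these, 17 (41.5%) had both B-cell arrays below, beside 13.5% of all genes. At an unadjusted p under 0.05, 2 (4.88%) stood lower, beside 2.3% of all genes. That count moved when single arrays were left out, as did the count over all genes. The host median was -0.05 without alone replicate 1 and -0.10 without alone replicate 2. Of 55 snoRNAs with a host analysed here, 39 had a lower difference than their host. Cct6a, the host of Snora15 and a subunit of the chaperonin that folds actin and tubulin, read 11.94 and 12.02 alone and 12.09 and 11.72 with B cells, so its groups overlapped. Of the 28 snoRNAs with a host analysed and both B-cell arrays below, 13 had a host that was also below in both.

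Other structured RNAs, a list of 17 added after the data were seen, stood lower still. They were taken by their RefSeq type (snRNA, guide RNA, Y RNA, ribonuclease P RNA, telomerase RNA or rRNA), without genes named as snoRNAs. The 2 lists are therefore split by name and annotation, and RNAs of snoRNA kind, such as U3 or guide RNAs, may fall in this one. Of the 17, 14 had both B-cell arrays below both alone arrays and 8 reached an unadjusted p under 0.05 on the lower side, or 4 without alone replicate 2, beside 13.5% and 2.3% of all genes. The median was -0.38, at -0.54 in replicate 1 and -0.26 in replicate 2. Rnu3a, the U3 RNA that starts processing of ribosomal RNA, read 10.59 and 10.94 alone, 10.12 and 9.10 with B cells, while the neutrophil co-culture gave 10.45 and 9.88, and here replicate 2 was the lower of the B-cell arrays. The difference for Rnu3a was -1.16 ± 0.31 (SE, unadjusted p = 0.0049). Rpph1, the RNA of ribonuclease P, read 12.16 and 12.32 against 11.66 and 12.03, and Rprl2, annotated in RefSeq as a ribonuclease P RNA, read 10.58 and 10.75 against 9.86 and 10.35. Rny1 and Rny3 are Y RNAs, bound by the Ro protein. Rny1 read 8.53 and 8.67 alone against 7.999 and 8.25, whereas Rny3 read 11.22 and 11.04 against 10.20 and 11.02. Rn7sk, the RNA that holds the elongation factor P-TEFb inactive, read 13.89 and 13.85 against 13.80 and 13.75, and Terc, the RNA of telomerase, 13.09 and 13.07 against 13.02 and 12.88. Rn7sk was the brightest gene on each alone and B-cell array, and whether its probes were near saturation was not tested. The recovery of short RNAs in the extractions was not measured, and its part in these values was not tested.

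**Figure D3:**
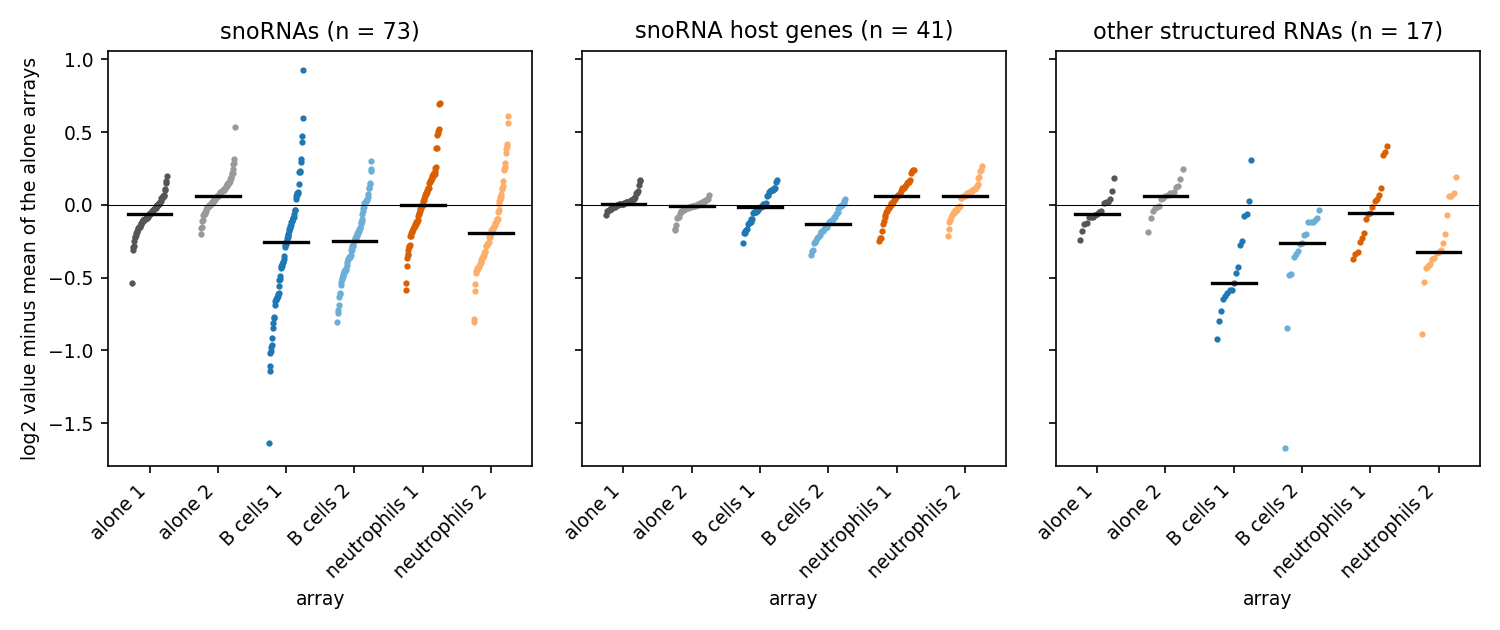
Difference of each of the 6 arrays from the mean of the 2 alone arrays (log2, vertical axis) for snoRNA genes (n = 73), their host genes (n = 41) and other structured RNAs (n = 17), with 1 point per gene and a black bar at the median. The snoRNA medians lie at -0.26 and -0.25 in the 2 B-cell arrays, and those of the hosts at -0.01 and -0.13.

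The clustered histone genes, which supply histones for new chromatin during DNA replication and whose mRNAs mostly lack a poly(A) tail, also held members that stood low. Of 30 measured, 13 had both B-cell arrays below both alone arrays, 2 had both above, and 8 reached an unadjusted p under 0.05, all lower, beside 13.5% and 2.3% of all genes. The median was -0.09, at -0.08 in replicate 1 and -0.12 in replicate 2. The count of 8 was 4 without alone replicate 1. H2bc9, a gene of histone H2B, read 8.81 and 9.02 alone, 8.44 and 8.23 with B cells, while the neutrophil co-culture gave 8.72 and 9.002. Its difference of -0.58 ± 0.13 (SE) had an unadjusted p of 0.0021. H4c1, a gene of histone H4, read 7.13 and 7.38 alone, 6.77 and 6.60 with B cells, while the neutrophil co-culture gave 7.57 and 7.18. With B cells H4c1 differed by -0.57 ± 0.15 (SE, unadjusted p = 0.0041). In both genes the B-cell arrays lay below the other 4. H2bc12 differed by -0.59 with overlapping groups, at 12.20 and 11.92 against 10.95 and 11.996, and H2ac21 split the replicates the other way, at 10.15 and 10.24 against 10.70 and 9.97. Genes of 1 histone class have nearly identical coding sequences, and signal shared between them on these probes was not tested. Genes of the DNA replication machinery had a median of 0.00. All 32 replication genes had a higher reading in B-cell replicate 1 than in replicate 2, beside 11380 of all 22180 genes. The replication medians were 0.10 and -0.09, beside 0.06 and -0.10 in the brightest class of genes.

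Promoters of replication-dependent histone genes are known for a CCAAT box, a TATA box and, in H2B genes, an octamer bound by Oct-1. The promoters of H2bc9 and H4c1 are printed because these members had the lowest differences among those without overlap, as 300 bases that end just past the start, from RefSeq on GRCm38.p6, 5′ to 3′ on the gene's strand. Capitals mark the CCAAT box by these letters, the TATA box as TATAAA, and the octamer as ATTTGCAT, each searched on both strands.
H2bc9, chr13:23543395-23543694, minus strand: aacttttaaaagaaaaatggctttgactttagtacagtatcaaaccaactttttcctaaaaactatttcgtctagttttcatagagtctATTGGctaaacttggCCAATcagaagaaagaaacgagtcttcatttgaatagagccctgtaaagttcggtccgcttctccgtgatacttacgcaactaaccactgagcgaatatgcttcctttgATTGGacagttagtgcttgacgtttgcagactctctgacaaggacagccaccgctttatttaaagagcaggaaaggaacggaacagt
H4c1, chr13:23761200-23761499, minus strand: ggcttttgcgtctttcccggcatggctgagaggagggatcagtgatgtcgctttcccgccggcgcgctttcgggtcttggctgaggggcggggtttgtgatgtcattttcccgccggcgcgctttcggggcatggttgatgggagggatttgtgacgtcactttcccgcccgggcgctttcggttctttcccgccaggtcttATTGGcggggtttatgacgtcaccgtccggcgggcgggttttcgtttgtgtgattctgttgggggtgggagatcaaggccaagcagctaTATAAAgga
H2bc9 held the CCAAT box on both strands and neither of the others, and H4c1 held the CCAAT box and the TATA box. Of 26 histone promoters in the table, 20 held the CCAAT box, 16 the TATA box and 9 the octamer, against 37.4%, 13.6% and 1.74% of 32851 promoters of the same length. The CCAAT box was in 10 of the 13 promoters of genes with both B-cell arrays below and in 10 of the 13 others. The octamer was in 2 of the 13 and in 7 of the 13 others. Every promoter with it belonged to an H2A or H2B gene, and such genes were fewer in the first set. The promoters of H2bc12 and H2ac12 overlap on opposite strands, as do those of H2bc1 and H2ac1. All of these lie among the others, and the same octamer was counted for both genes of a pair, so the 2 sets are not alike. All these counts are matches of letters and show no binding.

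Markers of B cells were read next, since the partner cells were sorted away. Of 26 mature B cell markers, 5 had both B-cell arrays above both alone arrays and 2 both below, with a median of -0.00, at 0.03 in replicate 1 and -0.01 in replicate 2. These shares, 19.2% and 7.69%, stand beside 13.5% of all genes in each direction. The markers that lay below the array median in both alone arrays could show the partner cells most directly, and there were 6 of them. Ms4a1, which encodes CD20, read 6.33 and 6.33 alone and 6.13 and 6.52 with B cells. Fcer2a, which encodes CD23, read 5.80 and 5.82 alone and 5.79 and 5.89 with B cells. Cr2, the complement receptor CD21, read 6.95 and 6.62 against 6.68 and 6.86. Cxcr5, the receptor that draws B cells to follicles, read 7.21 and 7.17 against 7.18 and 7.18. These 4 did not separate the groups. Cd83, an activation marker of B and dendritic cells, was the member of the 6 that did, at 7.18 and 7.23 alone against 7.41 and 7.55 (0.28, unadjusted p = 0.021), and its neutrophil arrays read 7.46 and 7.37. Bank1, a B cell scaffold protein of antigen receptor signalling, read 8.85 and 8.89 alone and 9.30 and 9.06 with B cells (0.31 ± 0.11, SE, unadjusted p = 0.018), and 9.11 and 9.11 with neutrophils. Cd79a, Cd79b and Cd22, parts or co-receptors of the B cell receptor, were bright in DP42 cells themselves. Cd79b read 12.48 and 12.52 alone and 12.45 and 12.48 with B cells.

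Some markers of other blood cells separated the groups, without passing adjustment. Of 29 neutrophil markers, 4 (13.8%) stood higher at an unadjusted p under 0.05, beside 1.61% of all genes, among them Ngp, a neutrophil granule protein, at 5.57 and 5.76 alone, 5.93 and 6.11 with B cells, while the neutrophil co-culture gave 7.27 and 7.70. Elane, neutrophil elastase, read 7.22 and 7.16 alone, 7.41 and 7.53 with B cells, while the neutrophil co-culture gave 7.71 and 7.77. Ly6g, the antigen used to sort mouse neutrophils, stood lower with B cells, at 5.60 and 5.74 against 5.30 and 5.39, and S100a8, among the most abundant neutrophil transcripts, read 5.51 and 5.65 against 5.44 and 5.48. The neutrophil list had medians on opposite sides of 0, at -0.04 in replicate 1 and 0.11 in replicate 2, with 6 markers above in both arrays and 3 below. Of 18 T and NK cell markers 7 (38.9%) were above in both arrays, beside 13.5% of all genes, and 1 below, with a median of 0.04 (0.06 and 0.12). The member at an unadjusted p under 0.05 among those that stood higher was Thy1, a surface protein of mouse T cells, at 7.30 and 7.29 against 7.54 and 7.52. Of 14 dendritic cell markers 5 (35.7%) were below in both arrays, beside 13.5% of all genes, Cd209a among them, and none of 19 monocyte or 10 erythroid markers reached an unadjusted p under 0.05. The part of carried-over partner cells in these values was not tested.

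Lists of immune signalling had small medians, from -0.08 for MHC class II to 0.07 for cytokines and chemokines, and in several the replicates lay on opposite sides of 0. The immediate early genes had medians of 0.07 and -0.11, the JAK-STAT genes 0.04 and -0.09, and the NF-kB targets 0.02 and -0.05. Of all genes, 13.5% had both B-cell arrays above and 13.5% both below. Of 17 genes of MHC class II, which shows antigen to helper T cells, 5 (29.4%) had both B-cell arrays below and 0 above, with a median of -0.08 (-0.01 and -0.12). H2-Ab1, the beta chain of I-A, read 10.30 and 10.32 alone and 10.09 and 10.05 with B cells (-0.24, unadjusted p = 0.036), whereas H2-Eb1, the beta chain of I-E, read 10.19 and 10.23 against 10.27 and 10.21. Cd69, an early activation antigen of lymphocytes, read 8.87 and 8.86 alone, 8.66 and 8.40 with B cells, while the neutrophil co-culture gave 9.19 and 9.05, so the 2 co-cultures lay on opposite sides of the cells alone. Its difference was -0.34 ± 0.11 (SE, unadjusted p = 0.016). No member of 28 TNF family genes, 24 NF-kB targets, 25 JAK-STAT genes or 28 immediate early genes reached an unadjusted p under 0.05. Of all genes, 1.61% reached it on the higher side and 2.3% on the lower, so 0 in lists of this size lies near those shares. Tnfsf13b, which encodes BAFF, read 6.67 and 6.71 alone and 6.42 and 6.81 with B cells, and Il6 read 4.57 and 4.55 against 4.52 and 4.71. Of 27 interferon response genes, 6 (22.2%) were above in both arrays and 4 (14.8%) below, and 1 reached an unadjusted p under 0.05. That gene was Isg15, a ubiquitin-like protein, at 6.15 and 6.36 against 6.56 and 6.53 (0.29, unadjusted p = 0.041). The median of the interferon list was 0.04 with B cells (0.04 and 0.03). With neutrophils, measured against the same 2 alone arrays, it was 0.49. Of 35 cytokines and chemokines 10 (28.6%) were above in both arrays, and the list medians were 0.02 and 0.13. The inflammatory cytokine Il1b read 5.81 and 5.90 against 5.97 and 6.38.

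Several lists of growth and metabolism divided the 2 B-cell arrays. All 34 mitosis genes had a higher reading in replicate 1, beside 11380 of all 22180 genes. The mitosis medians were 0.10 in replicate 1 and -0.06 in replicate 2. The 28 genes of the unfolded protein response, which guards secretory cells, had medians of 0.10 and -0.13. Both lists had a median brightness within the range of the brightest class, whose own medians were 0.06 and -0.10. Whether these lists split more than equally bright genes was not tested. In these lists the replicates lay on opposite sides of the cells alone, so their mean near 0 described neither array. Lists with medians below 0 in both arrays differed little, though many members had both B-cell arrays below, beside 13.5% of all genes. Of 66 cytosolic ribosomal protein genes, 27 (40.9%) had both B-cell arrays below and 3 above, with a median of -0.10 (-0.06 and -0.15). At an unadjusted p under 0.05, 5 (7.58%) stood lower, beside 2.3% of all genes. That count moved when single arrays were left out, as did the count over all genes. The ribosomal median was -0.09 without alone replicate 1 and -0.11 without alone replicate 2. Rpl13, a protein of the large subunit, read 11.45 and 11.35 alone and 11.14 and 11.08 with B cells, with no overlap, and its second probe set differed by -0.03. Of 31 genes of oxidative phosphorylation, 12 (38.7%) were below in both, with a median of -0.06 (-0.02 and -0.13). On the lower side 3 (9.68%) reached an unadjusted p under 0.05, beside 2.3% of all genes. That count also moved when single arrays were left out. The median of this list was -0.07 without alone replicate 1 and -0.04 without alone replicate 2. Ndufa1, a subunit of complex I, read 8.41 and 8.56 against 8.13 and 8.19 (-0.33, unadjusted p = 0.0090). Of 19 cholesterol genes 7 (36.8%) were below in both arrays, with medians of -0.03 and -0.16. Ebp, a sterol isomerase, read 9.72 and 9.73 alone and 9.49 and 9.52 with B cells, and Stard4, a carrier of cholesterol within cells, 9.17 and 9.21 against 9.03 and 8.80. Hspa1a, an inducible HSP70 chaperone, read 5.83 and 6.03 against 5.57 and 5.57 (-0.36, unadjusted p = 0.016).

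**Figure D4:**
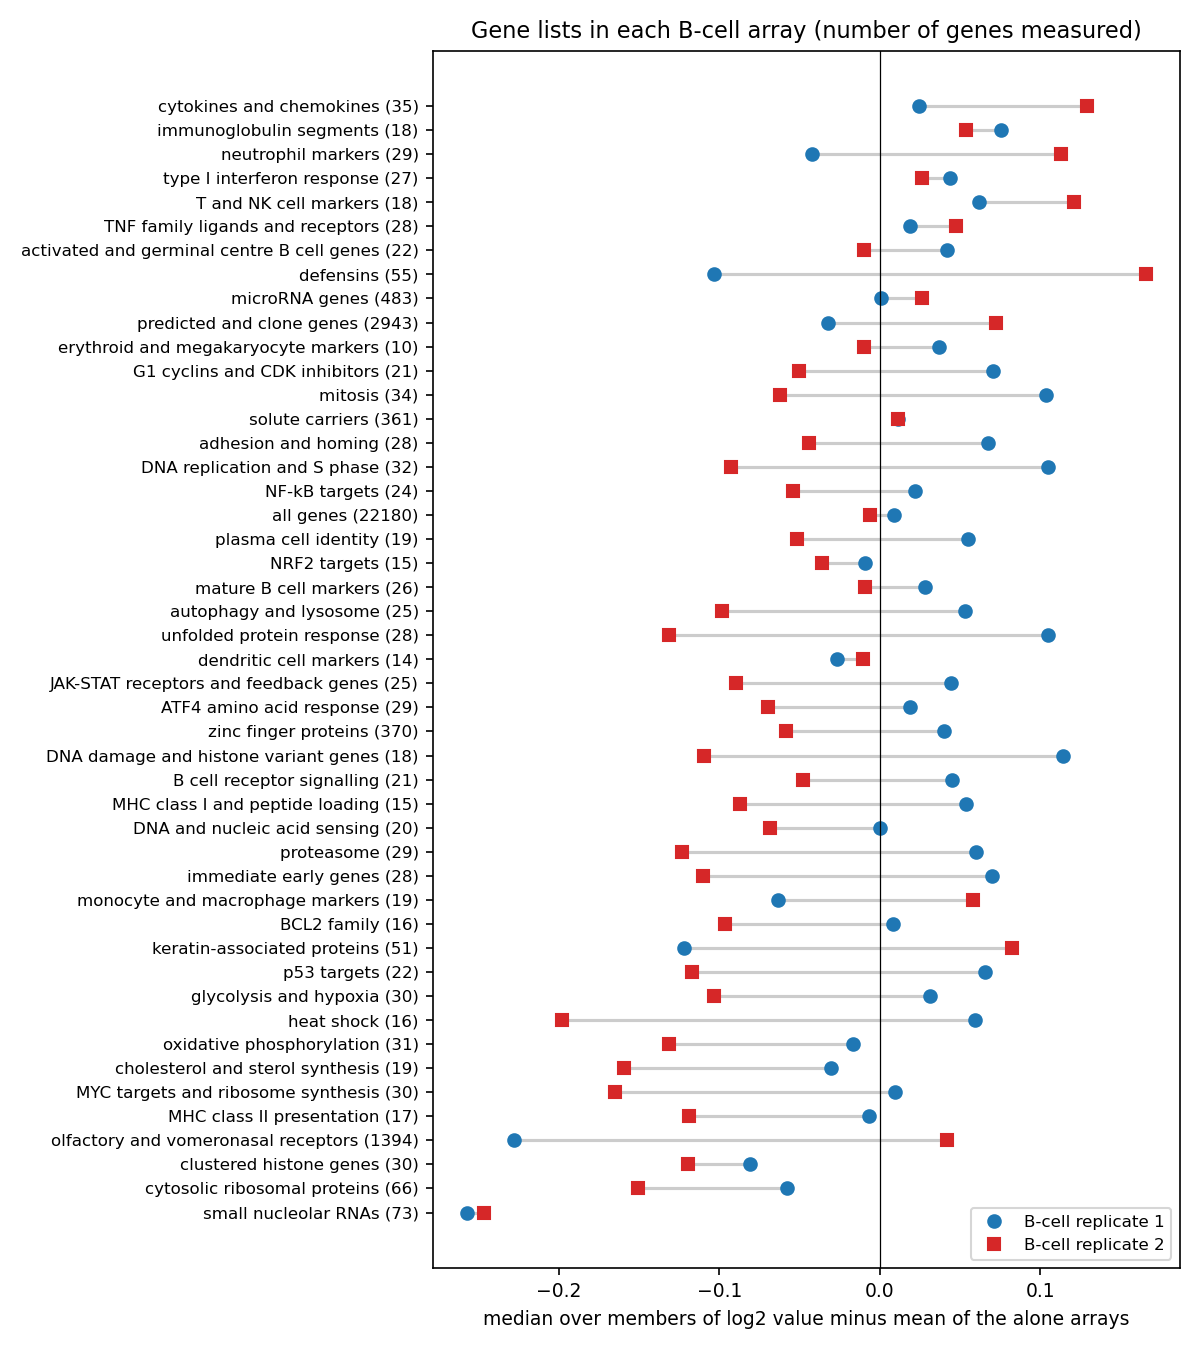
Median difference from the mean of the 2 alone arrays (log2, horizontal axis) for each gene list (vertical axis), with a circle for B-cell replicate 1 and a square for replicate 2. The snoRNA list lies at -0.26 and -0.25, while the replication and mitosis lists lie on opposite sides of 0.

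Genes of microRNAs, short RNAs that pair with mRNAs through bases 2 to 8 (the seed), were read by probe sets on the gene or its precursor, not on the mature arm. Of 483 measured, 17 stood higher and 17 lower at an unadjusted p under 0.05 (3.52% each, beside 1.61% and 2.3% of all genes), with a median of 0.02 (0.00 and 0.03). The mature sequences below belong to 6 of these genes. Mir450-2 and Mir301b are shown for the size of their differences, and the other 4 were chosen after their values were seen, for known roles in blood cells or a shared locus. They are from RefSeq on GRCm38.p6, with the seed in capitals.
mmu-miR-450a-5p, chrX:53048339-53048360, minus strand: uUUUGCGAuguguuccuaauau
mmu-miR-17-5p, chr14:115043684-115043706, plus strand: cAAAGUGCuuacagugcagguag
mmu-miR-142a-3p, chr11:87756903-87756925, plus strand: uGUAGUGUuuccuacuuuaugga
mmu-miR-15a-5p, chr14:61632075-61632096, minus strand: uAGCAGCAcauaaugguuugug
mmu-miR-130b-3p, chr16:17124071-17124092, minus strand: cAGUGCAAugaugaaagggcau
mmu-miR-301b-5p, chr16:17124456-17124477, minus strand: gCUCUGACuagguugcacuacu
Mir450-2, whose precursor gives miR-450a-5p, read 5.28 and 5.88 alone, 4.59 and 4.21 with B cells, while the neutrophil co-culture gave 5.28 and 5.13. Its difference of -1.18 ± 0.19 (SE) had an unadjusted p of 0.00023 and an adjusted p of 0.887, and all its values lay below the array medians. Mir17, a member of a microRNA cluster that promotes B cell lymphoma, read 7.03 and 7.04 against 6.87 and 6.46 (-0.37, unadjusted p = 0.022). Mir142, which is specific to blood cells, read 9.83 and 9.53 against 9.43 and 9.36 (-0.29, unadjusted p = 0.046). Mir15a, a gene of the locus deleted in chronic lymphocytic leukaemia, read 8.62 and 8.49 against 8.31 and 8.31 (-0.25, unadjusted p = 0.029). These 4 genes stood lower with no overlap between the groups. Mir301b and Mir130b lie beside each other on chromosome 16 and both stood higher. Mir301b read 8.23 and 7.97 alone and 8.44 and 8.91 with B cells (0.57 ± 0.19, SE, unadjusted p = 0.015), and Mir130b read 6.14 and 6.09 against 6.31 and 6.60 (0.34, unadjusted p = 0.021). The neutrophil arrays read 8.34 and 7.93 for Mir301b and 6.39 and 6.57 for Mir130b. Mir101c, whose difference of -0.89 came from replicate 1, read 9.98 and 9.65 alone, 8.10 and 9.75 with B cells, while the neutrophil co-culture gave 7.34 and 6.05.

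Gaps between the 2 B-cell arrays were ranked in genes at or above the median brightness whose alone arrays differed by under 0.2. Receptors, microRNAs, predicted genes and antigen receptor segments were skipped. Most of the 8 widest gaps with replicate 2 the higher lay in multicopy genes that are usually transcribed in male germ cells. Zfp972, a zinc finger gene at 7.94 and 9.40 with B cells, was also among the 8. Srsy, a Y-linked multicopy gene, read 10.35 and 10.26 alone, 9.09 and 10.63 with B cells, while the neutrophil co-culture gave 7.36 and 6.26. Speer4c, of the Speer family of spermatogenesis-associated genes, read 9.76 and 9.88, then 8.63 and 10.49, then 7.80 and 7.42. Trim43c read 9.71 and 9.65, then 8.86 and 10.12, then 8.19 and 8.02. In each of the 3 genes replicate 1 lay between the cells alone and the cells with neutrophils, and replicate 2 lay above both alone arrays. Over 36 such genes, a list added after the data were seen, replicate 2 was the higher in 32, beside 10794 of all 22180 genes. The medians of the 36 were -0.48 in replicate 1, 0.15 in replicate 2 and -0.78 with neutrophils. The median of -0.20 for both B-cell arrays turned to 0.15 without B-cell replicate 1 and to 0.01 with the receptor mean as a covariate. Members share near-identical copies, and the several probe sets of Srsy and of Astx5 gave nearly the same values, so these genes are not independent readings.

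The olfactory and vomeronasal receptor genes, which are normally transcribed in sensory tissue, split the replicates in the same way. Of 1394 genes, replicate 2 was the higher in 1218, beside 10794 of all 22180 genes. The receptor medians were -0.23 in replicate 1, 0.04 in replicate 2 and -0.37 with neutrophils. Both B-cell arrays lay below both alone arrays in 334 (24.0%), beside 13.5% of all genes. Both neutrophil arrays lay below in 1076 of the receptor genes, beside 27.4% of all genes. At an unadjusted p under 0.05, 158 receptor genes stood lower and 24 higher with B cells, so they made up 158 of the 511 genes that stood lower. Olfr350 stood lower without passing, at 5.20 and 5.15 alone and 4.10 and 4.29 with B cells (-0.98 ± 0.13, SE, adjusted p = 0.466). The receptor level and the brightness split described above moved together between the B-cell arrays, and their part in the counts of lower genes was not tested. With the array mean of the receptor genes as a covariate, 0 genes passed and the snoRNA median was -0.23.

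**Figure D5:**
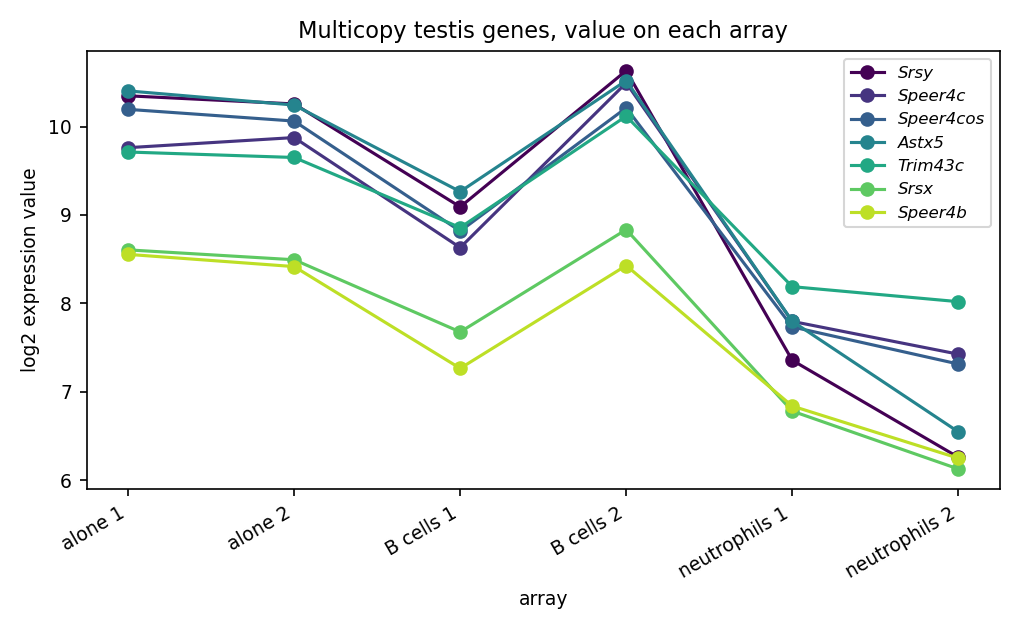
Log2 value (vertical axis) of 7 multicopy testis genes on each of the 6 arrays (horizontal axis), with a line joining the readings of a gene. Srsy reads 9.09 in B-cell replicate 1 and 10.63 in replicate 2, between which the 2 alone arrays lie at 10.35 and 10.26.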

How the data were processed

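RNA of 6 samples, whose cell type label is DP42, was hybridised to Affymetrix arrays after biotin labelling, per the labels' protocols. The authors deposited log2 expression values per probe set, which the submitters' processing notes credit to RMA. This method subtracts background, normalises between arrays and summarises probes, so a shift shared by most genes would be hidden and dim signals are compressed. The array model, software version and annotation build are not given in the sources used here. Of 41345 probe sets, 23521 were named with 1 gene, 1814 with several and 16010 with none (190 of them controls). For 1082 genes with several probe sets the brightest over the 6 arrays was kept, leaving 22180 genes.

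Differences came from limma 3.58.1 (R 4.3.3), fitted to the 6 arrays together (3 residual degrees of freedom, prior 5.55). Tests were two-sided, and p-values were adjusted by Benjamini-Hochberg across the genes, with 0.05 as the threshold. The fit was tested on simulated data in 20 simulations. The number of arrays limits the precision. Gene lists (35 of symbols, with 770 of 849 symbols measured, 5 of them through older symbols, and 11 by name pattern) are given by counts and medians, with no test of a list. The members and lists were chosen with earlier results of these data known. Lists of snoRNA classes and hosts, structured RNAs, early B-lineage and multicopy testis genes were added after seeing the data.

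Named genes were the 12 largest non-overlapping differences at an unadjusted p under 0.05 in each direction, the 8 largest in the brighter genes (at least the median signal), the 8 with the largest gap between the B-cell arrays where the alone arrays differed by under 0.2, the 3 largest differences and 2 largest gaps of each list, and 42 fixed genes, of which 37 were analysed. Predicted genes, microRNAs, receptors and antigen receptor segments were skipped in the first 3 parts. Host genes, further structured RNAs, microRNAs and markers, and Olfr350, were chosen after their values were seen. Replicate numbers were checked for pairing. Deviations from the group means of same-numbered arrays correlated over genes at -0.07 (alone and B cells), 0.07 (alone and neutrophils) and -0.15 (B cells and neutrophils), so the numbers were not taken to pair the arrays. Alternatives were a fit of 4 arrays, a replicate block, omission of each array in turn, quantile normalisation, centring, brighter genes only, averaged probe sets, eBayes with trend and robust settings, receptor genes as a covariate or left out, other thresholds and all probe sets. Sequences came from RefSeq, GRCm38.p6. Python 3.11.15 with matplotlib 3.10.9 made the plots.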

Additional observations from a re-analysis of the deposited data

How the results depend on the processing

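With limma, 0 genes passed in every setting except brighter genes only and eBayes with trend and robust settings, which each called 1 gene, Cd209a. The 869 genes at an unadjusted p under 0.05 became 418 to 3434 when 1 array was left out, 440 with brighter genes only, where fewer genes were tested, and 2646 where the receptor mean was a covariate (1308 higher and 1338 lower); the cause was not tested for the others. Centring on array medians gave 229 higher and 726 lower, against 358 and 511. The 6003 genes whose B-cell arrays both lay outside both alone arrays became 2825 with brighter genes only. With the replicate block 0 genes passed and 850 had an unadjusted p under 0.05, and the block changed no other call. The SD of the difference between the B-cell arrays was 0.257, and 0.230 after quantile normalisation.

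Of 3847 pairs of a named gene and an alternative, 3638 kept their direction and side of the threshold, 207 changed sign in genes that passed in no setting, 0 reversed a call and 2 newly passed, both for Cd209a. Of 779 pairs of a list and an alternative, 63 moved. Of simulated 1.5-fold differences 77.8% were recovered where every group had the same spread, and RMA compresses dim signals.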
